A study of Mus musculus with 9 samples.

Results

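The genes described here encode the ligands and receptors of the FGF, PDGF and VEGF families, together with the pairs HGF and MET, KITL and KIT, GAS6 and AXL, and the collagen receptors DDR1 and DDR2. Members were picked by a rule on gene symbols, which found 47 of the 55228 genes in the count table. The rule was set with earlier results of these data known, so the members are not an independent set. RNA was sequenced from 9 cultures of undifferentiated HC11 cells, an epithelial line derived from the mammary gland of a BALB/c mouse, with 3 cultures of each of 3 lines. *WT* was the unedited parental line. *KD1* and *KD2* had been edited at *Vangl2* with Cas9, a different guide RNA for each, and a repair template carrying a stop codon, and each had been grown from a single colony, so that each edited line is 1 clone. The labels call both edited lines knockouts. All 3 lines were kept in growth medium with 10% fetal bovine serum, insulin at 5 µg/mL and EGF at 10 ng/mL, so EGF was added to every culture. No unedited line that had passed through the same nucleofection and cloning was analysed here, and clone, guide and edit cannot be told apart within a line. The labels number the cultures of a line without saying whether they were grown separately, so p-values measure the spread between these cultures, which may be technical.

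These families share 1 design. A secreted ligand brings together receptor chains that carry a tyrosine kinase in the cell, and the kinases then switch on the RAS and ERK, PI3K and phospholipase C gamma relays. Locally acting FGFs need heparan sulfate on the cell surface to hold ligand and receptor together. PDGFs and VEGFs act as dimers, and the DDRs are unusual in being switched on by collagen. In the mammary gland, FGFR2 and FGFR1 in the epithelium are needed for duct outgrowth and for its regenerating cells, HGF from the stroma drives branching through MET on the epithelium, and PDGF receptors are best known from stromal and perivascular cells.

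Depth ranged from 19231428 to 28360592 counts per culture, and 3 counts, the most that could be missed where none was seen, corresponded to between 0.0999 and 0.154 CPM (counts scaled to the size of the library). Among replicates, *WT* replicate 1 and *KD2* replicate 3 stood apart, with a chi-square per degree of freedom over genes of 10.7 to 13.1 and 17.4 to 22.1 against their fellows, where the other pairs lay between 1.37 and 3.38. Leaving out *WT* replicate 1 ended the calls of *Hgf* and *Pdgfra* in *KD2*, leaving out *KD2* replicate 3 ended that of *Fgfr3* between the edited lines, and no other member's call changed without either. Of the 47 members, 6 had no count in any culture (*Fgf3*, *Fgf4*, *Fgf5*, *Fgf8*, *Fgf14* and *Fgf16*), 15 never exceeded 3 counts, and 27 passed the filter on low counts and were tested among 15253 genes. The members together took between 0.153% and 0.168% of the counts in *WT* cultures, 0.207% to 0.209% in *KD1* and 0.229% to 0.230% in *KD2*. *Vangl2* itself had 66, 99 and 86 counts in *WT*, 75, 48 and 69 in *KD1*, and 90, 118 and 90 in *KD2*, a log2 fold change of -0.63 in *KD1* (adjusted p = 0.00581) and 0.05 in *KD2* (adjusted p = 0.81). A count over the whole gene does not show a stop codon. At the protein level, the paper's immunoblots found VANGL2 nearly absent in *KD1* and strongly reduced in *KD2*. Of 8 epithelial markers, 7 were above 3 counts in each line and *Krt19* was at 0 in all cultures. Their summed level was 4842 to 5411 CPM in *WT*, 6091 to 6240 in *KD1* and 2890 to 3587 in *KD2*, but they did not move together. In *KD2*, mean CPM was lower for *Krt5* (1088 against 2117 in *WT*), *Krt14*, *Cdh1*, *Epcam* and *Cldn4*. It was higher there for *Krt8* (268 against 158), and slightly for *Krt18* (136 against 125). In *KD1*, the mean of *Krt14* was lower, that of *Krt5* nearly the same (2159 against 2117), and those of the other detected markers higher. *Cldn4* had 15562 to 17272 counts there against 440 to 512 in *WT*. No test is given for these means.

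Each member was compared between lines with the quasi-likelihood test of edgeR, adjusted by Benjamini-Hochberg over all 15253 genes, and was called where the adjusted p was under 0.05 and the absolute log2 fold change above 1. For *KD1*, 3 members were called above *WT* and 6 below, which is 11.1% and 22.2% of the 27, where 9.34% and 7.49% of all tested genes were called. In *KD2*, 9 were higher and 4 lower, or 33.3% and 14.8%, against 14.5% and 6.71% of all tested genes. Between the edited lines, 10 members were higher in *KD2* and 3 lower, or 37.0% and 11.1%, against 14.7% and 8.58%. The shares called higher in *KD1* and lower in *KD2* against *KD1* were thus near that background. The median log2 fold change of the 27 was -0.04 in *KD1* and 0.66 in *KD2*, beside -0.03 and 0.01 over all tested genes, and the median absolute change was 0.70 and 0.98, beside 0.35 and 0.46. Both comparisons with *WT* use the same 3 *WT* cultures.

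The members fell into unlike patterns over the 2 edited lines. *Vegfc* and *Pdgfb* were called higher in both lines, and *Fgf13*, *Fgfr2* and *Fgf21* lower in both. *Pdgfrb* and *Ddr2* fell in *KD1* and rose in *KD2*, and *Vegfd* the other way round. *Pdgfc* was called only in *KD1*, where it was lower, and it differed between the edited lines. *Fgf7*, *Hgf*, *Pdgfra*, *Fgf11* and *Fgf1* were called in *KD2*, where they were higher, and not in *KD1*. For *Fgf7*, *Hgf*, *Fgf11* and *Fgf1* the difference between the edited lines was itself called, and for *Pdgfra* it was not.

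**Figure D1:**
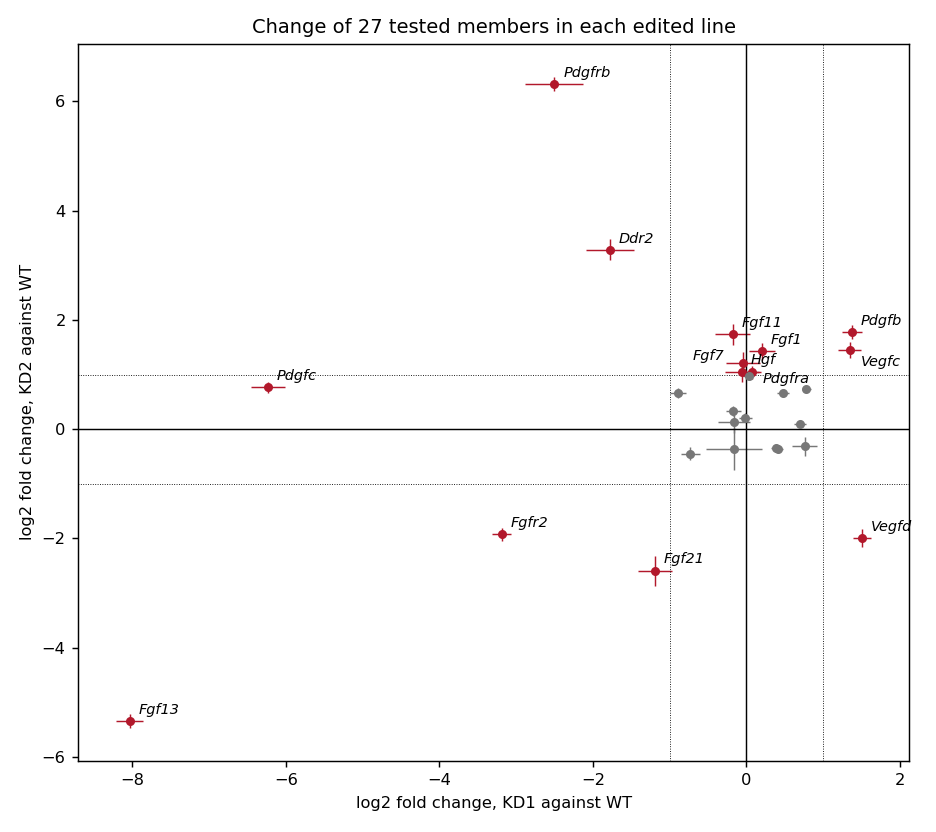
Log2 fold change against *WT* in *KD1* (horizontal axis) and in *KD2* (vertical axis) for the 27 tested members, with bars of 1 standard error, red for members called in either line and dotted lines at the fold limit. *Pdgfrb* at -2.50 and 6.32 and *Pdgfc* at -6.24 and 0.76 lie far from the diagonal, and *Fgf13* at -8.04 and -5.35 is low on both axes.

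The stretches of 250 bases before an annotated start are shown for 4 members as examples. These are one called higher in both lines (*Vegfc*) and one called lower in both (*Fgf21*). The other 2, *Pdgfc* and *Ddr2*, are not the only members with changes of opposite sign and a stretch without an annotated exon. They are from RefSeq on GRCm38.p6, written 5′ to 3′ in the sense of the gene with each CG in capitals, since CG-rich starts are common in broadly expressed genes and CG-poor ones in tissue-restricted genes. The *Vegfc* stretch lies at chr8:54077282-54077531 on the plus strand, that of *Fgf21* at chr7:45615491-45615740 on the minus strand, that of *Pdgfc* at chr3:81036166-81036415 on the plus strand and that of *Ddr2* at chr1:170088945-170089194 on the minus strand. The *Ddr2* stretch lies within the span of longer *Ddr2* transcripts, and reads from one start cannot be told from those of another in gene counts.
*Vegfc*: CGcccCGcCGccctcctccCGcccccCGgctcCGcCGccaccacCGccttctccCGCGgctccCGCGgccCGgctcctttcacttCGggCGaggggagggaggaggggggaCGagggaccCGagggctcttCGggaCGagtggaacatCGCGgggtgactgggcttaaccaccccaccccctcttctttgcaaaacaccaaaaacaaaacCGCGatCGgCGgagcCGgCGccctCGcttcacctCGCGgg
*Fgf21*: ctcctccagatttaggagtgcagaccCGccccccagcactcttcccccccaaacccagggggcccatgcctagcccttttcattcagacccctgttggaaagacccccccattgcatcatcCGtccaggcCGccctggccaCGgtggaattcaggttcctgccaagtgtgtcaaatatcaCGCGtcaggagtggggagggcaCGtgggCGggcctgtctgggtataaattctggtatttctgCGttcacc
*Pdgfc*: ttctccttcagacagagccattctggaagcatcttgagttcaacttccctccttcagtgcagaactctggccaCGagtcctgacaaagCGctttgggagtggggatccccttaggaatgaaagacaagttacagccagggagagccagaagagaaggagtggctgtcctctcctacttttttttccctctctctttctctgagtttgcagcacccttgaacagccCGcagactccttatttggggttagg
*Ddr2*: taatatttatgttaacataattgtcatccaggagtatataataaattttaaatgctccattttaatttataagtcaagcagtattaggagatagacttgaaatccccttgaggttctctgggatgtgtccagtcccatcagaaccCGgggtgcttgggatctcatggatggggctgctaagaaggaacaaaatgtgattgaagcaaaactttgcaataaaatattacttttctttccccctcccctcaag
The *Vegfc* stretch held 30 CG pairs and that of *Fgf21* 9, while *Pdgfc* had 3 and *Ddr2* 1. The median over 32851 RefSeq promoters was 6. The letters TTCNNNGAA, the core bound by STAT factors, occur on either strand in 7.02% of all those stretches, and in 2 of the 52 that belong to members (38 genes), those of *Fgf12* and *Fgf23*. Neither of these genes had more than 1 count in any culture, and the 4 stretches shown hold no match.

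Among the FGF receptor genes, *Fgfr1* was the most abundant in every line. Its level was 68.0 ± 4.27 TPM (counts per length, scaled to a fixed total) in *WT*, 69.2 ± 3.80 in *KD1* and 149 ± 10.2 in *KD2* (SD, n = 3). Its counts were 3242, 4421 and 3333 in *WT*, 4885, 4175 and 4247 in *KD1*, and 7698, 9432 and 7583 in *KD2*. On the log2 scale it differed from *WT* by 0.98 ± 0.07 (SE) in *KD2* (adjusted p = 5.47e-08), just inside the fold limit, and by 0.03 ± 0.07 in *KD1* (adjusted p = 0.765). It passed the limit in *KD2* with library size alone (1.09), with at least 10 counts in every culture (1.05), and without *WT* replicate 2 (1.04), *KD2* replicate 1 (1.03) or *KD2* replicate 2 (1.02).

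*Fgfr2*, which in epithelium is the receptor for FGF7 and FGF10, had 466, 763 and 580 counts in *WT*, 97, 72 and 65 in *KD1*, and 186, 218 and 141 in *KD2*. No edited culture overlapped *WT*, and *KD1* lay below *KD2*. The log2 fold change was -3.19 ± 0.13 in *KD1* (adjusted p = 5.64e-11) and -1.93 ± 0.11 in *KD2* (adjusted p = 4.52e-09), and *KD2* exceeded *KD1* by 1.26 ± 0.14 (adjusted p = 2.14e-06). As a share of the TPM of all 4 receptors, *Fgfr2* made up 13.3% ± 1.20 in *WT*, 1.59% ± 0.207 in *KD1* and 2.04% ± 0.266 in *KD2*. Gene counts do not tell its epithelial splice form from the mesenchymal one.

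*Fgfr3* stayed a minor receptor, with 45, 53 and 59 counts in *WT*, 110, 106 and 101 in *KD1*, and 53, 63 and 31 in *KD2*. *Fgfr3* was above *WT* in *KD1* by 0.76 ± 0.16 on the log2 scale (adjusted p = 0.00118), within the fold limit, and in *KD2* it differed from *WT* by -0.32 ± 0.18 (adjusted p = 0.132). The difference between the edited lines, -1.07 ± 0.16 (adjusted p = 4.7e-05), was called, but fell short of the fold limit without *KD2* replicate 3 (-0.94). A share of 11.6% of its 50-base windows also occurs in *G630022F23Rik*, which overlaps it on the other strand. *Fgfr4* had 1 count in 1 *KD1* culture and in 1 *KD2* culture. The 4 FGF receptor genes summed to 80.0 ± 5.44 TPM in *WT*, 72.7 ± 3.93 in *KD1* and 154 ± 9.75 in *KD2*.

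**Figure D2:**
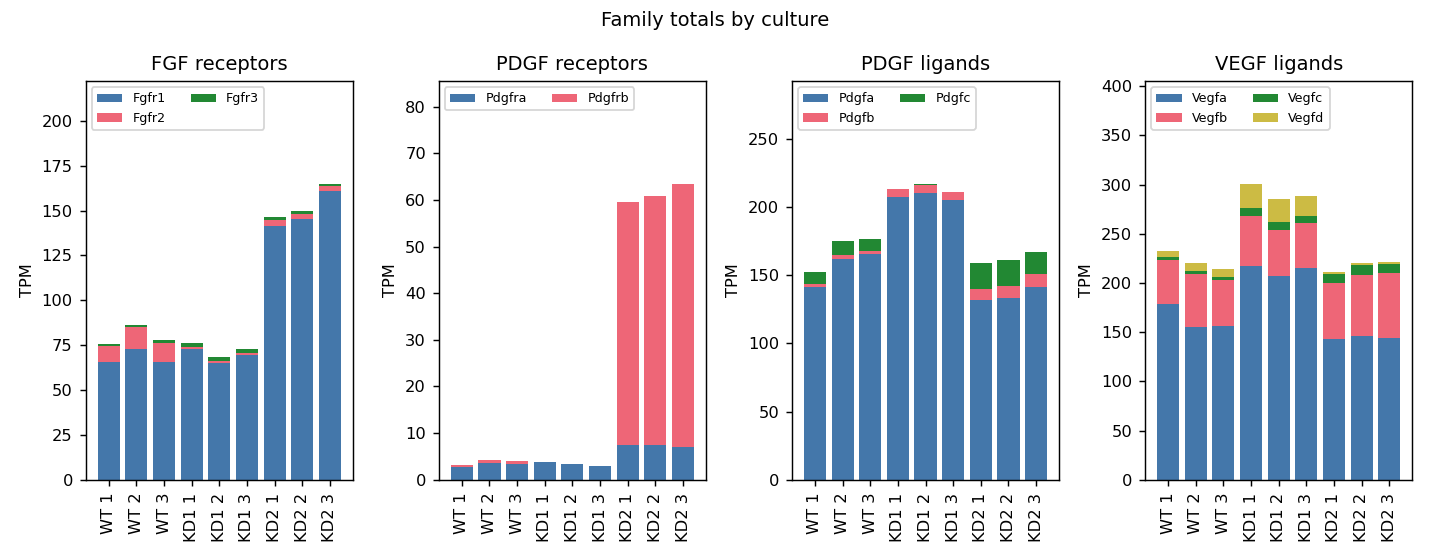
TPM of FGF receptors, PDGF receptors, PDGF ligands and VEGF ligands in each of the 9 cultures, stacked by gene, with a separate vertical axis for each family. The PDGF receptor total lies between 59.6 and 63.3 TPM in *KD2* cultures and at or below 4.2 in *WT* and *KD1*, and the FGF receptor total is highest in *KD2*.

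Among FGF ligands, the largest change was in *Fgf13*, which encodes an intracellular FGF homologous factor that binds sodium channels and microtubules and does not work as a secreted ligand. It had 695, 911 and 696 counts in *WT*, 2, 4 and 4 in *KD1*, and 26, 26 and 13 in *KD2*. The log2 fold change was -8.04 ± 0.18 in *KD1* (adjusted p = 1.4e-13) and -5.35 ± 0.13 in *KD2* (adjusted p = 1.29e-12), and *KD2* was above *KD1* by 2.69 ± 0.34 (adjusted p = 6.86e-06). *Fgf13* lies on chromosome X, from 59062145 to 59568071 on the minus strand, and the 5 tested genes within 2 Mb had a median log2 fold change of -0.38 in *KD1* and -0.80 in *KD2*. Whether the region took part in its change was not tested. A related factor, *Fgf11*, moved the other way in *KD2*. Its counts were 21, 39 and 39 in *WT*, 42, 26 and 36 in *KD1* and 128, 143 and 108 in *KD2*, with a log2 fold change of 1.73 ± 0.19 in *KD2* (adjusted p = 2.74e-06) and -0.18 ± 0.23 in *KD1* (adjusted p = 0.537).

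The ligand total depends on whether these intracellular factors are counted. All 22 FGF genes summed to 50.3 ± 2.20 TPM in *WT*, 11.6 ± 0.810 in *KD1* and 21.6 ± 0.882 in *KD2*, and *Fgf13* alone gave 69.6% of the *WT* sum, 1.13% of that of *KD1* and 4.35% of that of *KD2*. Without the 4 homologous factors, the other 18 summed to 13.3 ± 0.700 TPM in *WT*, 9.67 ± 0.458 in *KD1* and 13.3 ± 0.873 in *KD2*. The 15 locally acting FGFs made up 5.86 ± 0.0719 TPM in *WT*, 6.45 ± 0.269 in *KD1* and 11.8 ± 1.31 in *KD2*, so their sums in *KD2* lay above those of both other lines.

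*Fgf7*, a stromal ligand that acts on the epithelial form of FGFR2, had 30, 29 and 29 counts in *WT*, 41, 29 and 32 in *KD1*, and 70, 114 and 55 in *KD2*. The *KD2* cultures did not overlap the rest on the CPM scale, at 3.11 ± 0.596 CPM against 1.37 ± 0.192 in *WT*, a log2 fold change of 1.21 ± 0.20 (adjusted p = 1.04e-04). *Fgf1*, which can bind all FGF receptors, had 31, 47 and 39 counts in *WT*, 54, 62 and 44 in *KD1*, and 129, 137 and 96 in *KD2*. *Fgf1* was called in *KD2* at a log2 fold change of 1.42 ± 0.16 (adjusted p = 2.71e-06) and not in *KD1* at 0.20 ± 0.18 (adjusted p = 0.346). The 38 tested genes within 2 Mb of *Fgf1* on chromosome 18 had a median log2 fold change of 1.24 in *KD2* and -0.09 in *KD1*. The part of the region in the result was not tested.

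*Fgf21* encodes a hormone-like FGF that signals with beta-Klotho. Its counts were 35, 46 and 31 in *WT*, 20, 18 and 20 in *KD1* and 6, 6 and 9 in *KD2*. The levels stepped down without overlap on the CPM scale, by a log2 fold change of -1.19 ± 0.23 in *KD1* (adjusted p = 4.68e-04) and -2.59 ± 0.28 in *KD2* (adjusted p = 1.7e-06), and *KD2* was below *KD1* (-1.40 ± 0.31, adjusted p = 0.00122). *Klb*, the gene of beta-Klotho, had at most 2 counts in any culture. *Fgf2* at 36 to 87 counts and *Fgf22* at 7 to 18 counts were tested and not called in any comparison, with adjusted p from 0.196 to 0.722. Of the FGF genes too low to test, *Fgf17* reached 10 counts, *Fgf15* 6 and *Fgf18* 6. *Fgf18* had 0, 0 and 1 counts in *WT*, 6, 4 and 5 in *KD1*, and 2, 3 and 3 in *KD2*. The mammary ligand gene *Fgf10* had 1 count in 1 *KD2* culture and none elsewhere.

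Of the tested members, the PDGF receptor gene *Pdgfrb* gave the widest gap between the edited lines. *Pdgfrb*, the receptor for PDGF-B dimers, had 11, 22 and 21 counts in *WT*, against 4, 5 and 2 in *KD1* and 1572, 1929 and 1475 in *KD2*. The level was 0.823 ± 0.236 CPM in *WT*, 0.142 ± 0.0582 in *KD1* and 66.8 ± 5.02 in *KD2*, with no overlap between lines. The log2 fold change was -2.50 ± 0.38 in *KD1* (adjusted p = 6.6e-05) and 6.32 ± 0.14 in *KD2* (adjusted p = 4.64e-13), a fold of 79.9. *Pdgfrb* lies on chromosome 18, and the 27 tested genes within 2 Mb had a median log2 fold change of 0.15 in *KD2*. *Pdgfra*, which binds PDGF-A, PDGF-B and PDGF-C, had 133, 218 and 171 counts in *WT*, 256, 216 and 180 in *KD1*, and 411, 490 and 331 in *KD2*. *Pdgfra* was called in *KD2* at 1.04 ± 0.11 (adjusted p = 1.89e-06), a call that ended at 0.94 without *WT* replicate 1, and in *KD1* it differed from *WT* by 0.07 ± 0.12 (adjusted p = 0.618). *Pdgfrb* thus made up 15.7% ± 2.60 of the PDGF receptor TPM in *WT*, 2.95% ± 1.05 in *KD1* and 88.1% ± 0.836 in *KD2*.

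Markers of cells that usually carry PDGF receptors moved between the lines as well. The summed level of 8 pericyte or smooth muscle markers was 291 to 339 CPM in *WT*, 82.9 to 87.5 in *KD1* and 581 to 654 in *KD2*. In *WT* and *KD2* most of it was *Mcam*, which had 13071, 15938 and 12104 counts in *KD2*. *Kcnj8* and *Abcc9* had no count in any culture and at most 1 count, respectively. *Cspg4*, the NG2 gene, had 140, 282 and 169 counts in *WT*, 107, 101 and 110 in *KD1*, and 362, 417 and 286 in *KD2*, and *Notch3* stood at 28.7, 47.7 and 37.5 CPM in *WT*, *KD1* and *KD2*. *Des*, the desmin gene of muscle and pericytes, had 1, 0 and 3 counts in *WT*, 2, 1 and 1 in *KD1*, and 44, 68 and 46 in *KD2*, and *Rgs5* had none in *WT*, 9 to 11 in *KD1* and 5 to 6 in *KD2*. For 8 fibroblast markers the sum was 318 to 360 CPM in *WT*, 7.02 to 8.10 in *KD1* and 108 to 125 in *KD2*, nearly all of it *Postn*, with *Lum* and *Thy1* at 3 counts or fewer throughout. In bulk RNA a change in the share of cells that carry a gene and a change in RNA per cell cannot be told apart, and the part of such cells in these results was not tested.

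Of the PDGF ligands, *Pdgfa* was by far the most abundant, at 156 TPM in *WT*, 207 in *KD1* and 136 in *KD2*. Its counts were 2208, 3107 and 2661 in *WT*, 4389, 4244 and 3958 in *KD1*, and 2262, 2736 and 2107 in *KD2*. The log2 fold change was 0.41 ± 0.07 in *KD1* (adjusted p = 1.51e-04) and -0.36 ± 0.07 in *KD2* (adjusted p = 3.71e-04), both within the fold limit. A gene on the other strand, *6330403L08Rik*, overlaps 26.1% of its exon bases, and whether the counting used strand is not given in the sources used here.

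*Pdgfb* was higher in both lines, with 45, 65 and 47 counts in *WT*, 163, 173 and 146 in *KD1*, and 191, 246 and 184 in *KD2*. Neither edited line overlapped *WT*, and the log2 fold change was 1.37 ± 0.13 in *KD1* (adjusted p = 7.06e-07) and 1.78 ± 0.13 in *KD2* (adjusted p = 3.17e-08). *Pdgfc*, whose product must be cut before it binds PDGFRA, was nearly lost in *KD1*. It had 229, 320 and 240 counts in *WT*, 1, 6 and 5 in *KD1*, and 526, 639 and 387 in *KD2*. The log2 fold change was -6.24 ± 0.22 in *KD1* (adjusted p = 1.78e-11) and 0.76 ± 0.11 in *KD2* (adjusted p = 2.32e-05), and the edited lines differed by 7.0 ± 0.21 (adjusted p = 1.56e-12). The 10 tested genes within 2 Mb of *Pdgfc* had a median of -0.02 in *KD1* and 0.03 in *KD2*. *Pdgfd* had 1 count in 1 *KD1* culture. By TPM, *Pdgfc* made up 5.64% ± 0.404 of the PDGF ligands in *WT*, 0.0576% ± 0.0384 in *KD1* and 11.1% ± 1.31 in *KD2*.

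VEGF ligands were led by *Vegfa*, the main angiogenic factor, in every line. It had 3823, 4094 and 3461 counts in *WT*, 6340, 5745 and 5697 in *KD1*, and 3364, 4121 and 2941 in *KD2*. On the log2 scale it changed by 0.38 ± 0.07 in *KD1* (adjusted p = 2.37e-04) and -0.34 ± 0.07 in *KD2* (adjusted p = 5.39e-04), opposite in sign and within the fold limit. *Vegfb* had 362 to 523 counts in *WT*, 459 to 546 in *KD1* and 505 to 659 in *KD2* and was not called.

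The lymphatic ligands *Vegfc* and *Vegfd*, which act on VEGFR3, behaved differently from each other. *Vegfc* had 33, 54 and 37 counts in *WT*, 134, 134 and 106 in *KD1*, and 123, 155 and 113 in *KD2*. *Vegfc* was higher in both edited lines by a log2 fold change of 1.34 ± 0.15 (adjusted p = 3.4e-06) and 1.46 ± 0.15 (adjusted p = 1.13e-06), and the edited lines differed by 0.11 ± 0.13 (adjusted p = 0.459). *Vegfd* had 81, 126 and 109 counts in *WT*, 398, 365 and 306 in *KD1*, and 26, 41 and 24 in *KD2*. The 3 lines did not overlap, with a log2 fold change of 1.51 ± 0.12 in *KD1* (adjusted p = 1.21e-07) and -2.00 ± 0.17 in *KD2* (adjusted p = 1.41e-07). *Vegfd* lies on chromosome X, where the median log2 fold change of tested genes was -0.63 in *KD2* and -0.09 in *KD1*. The 19 tested genes within 2 Mb of it had medians of -0.83 and 0.24, of the same sign as *Vegfd* and smaller, and their part in the result was not tested.

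Receptors for VEGFs were represented almost wholly by *Flt1*, which encodes VEGFR1 and, by alternative ends, a soluble decoy that gene counts do not separate. It had 5612, 9193 and 6891 counts in *WT*, 12302, 11576 and 11746 in *KD1*, and 13269, 15852 and 10200 in *KD2*. Its level was 97.6 TPM in *WT*, 136 in *KD1* and 172 in *KD2*, with log2 fold changes of 0.48 ± 0.08 in *KD1* (adjusted p = 9.67e-05) and 0.66 ± 0.08 in *KD2* (adjusted p = 3.7e-06). *Kdr*, the gene of VEGFR2, had no count in *WT*, at most 2 in *KD1* and 1 in each *KD2* culture. *Flt4*, the gene of VEGFR3, had 0, 0 and 1 counts in *WT*, 1, 2 and 2 in *KD1*, and 3, 2 and 4 in *KD2*. The 8 endothelial markers summed to 2.05 to 2.59 CPM in *WT*, 4.87 to 5.70 in *KD1* and 1.52 to 2.30 in *KD2*, most of it *Pecam1* in *WT* and *KD1*, with *Emcn* at 0 in all cultures. *Cdh5* had 0, 0 and 1 counts in *WT*, 5, 7 and 5 in *KD1*, and 22, 24 and 7 in *KD2*, and *Tek* had at most 1 in *WT* and *KD1* and 7, 8 and 2 in *KD2*. *Flt1* alone stood at 331, 461 and 522 CPM in *WT*, *KD1* and *KD2*, and the part of endothelial cells in its level was not tested.

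**Figure D3:**
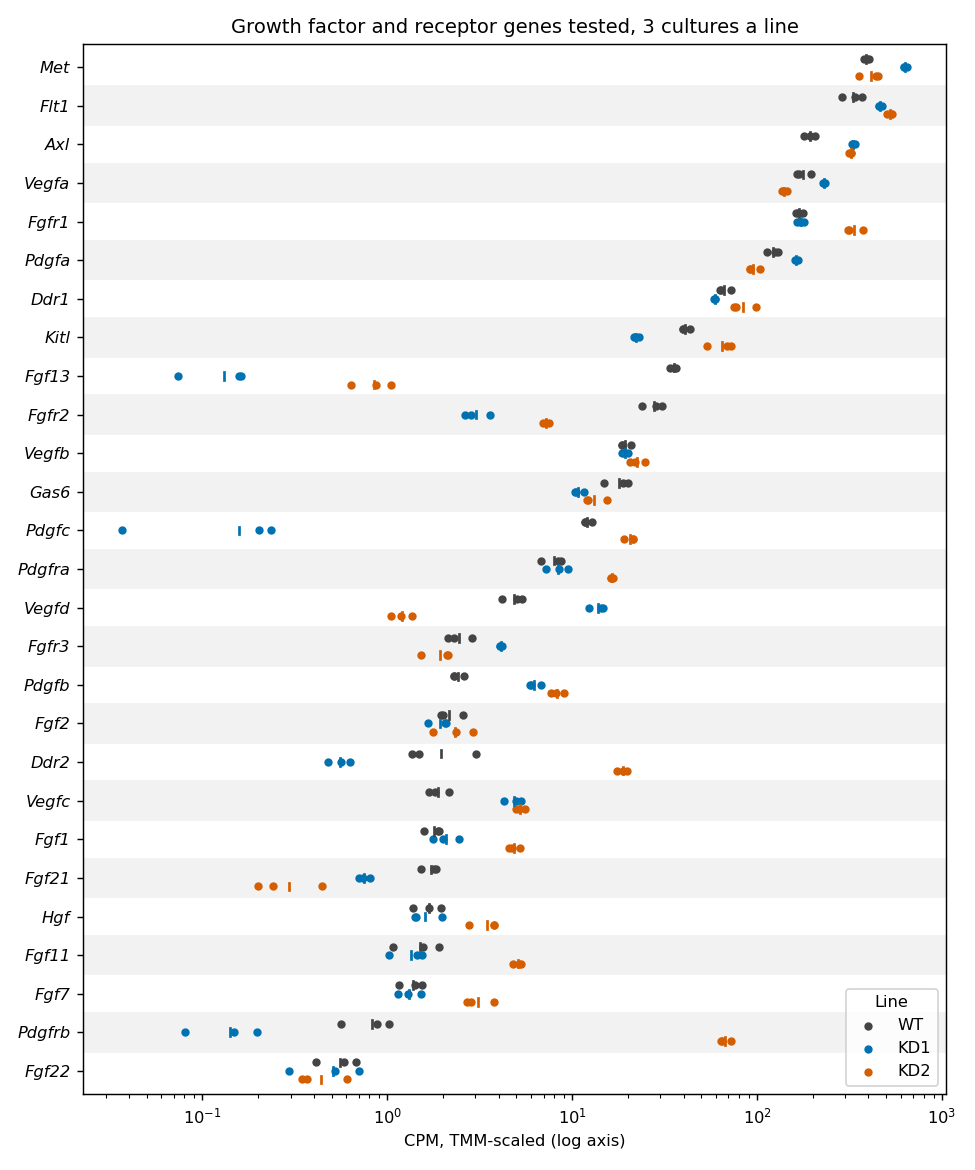
CPM of the 27 tested members in each of the 9 cultures (points, log axis, 3 for each line) with the mean of each line as a bar, ordered by the *WT* mean. *Pdgfrb* in *KD2* (66.8 CPM) stands far to the right of *WT* (0.823), while *Fgf13* in *KD1* (0.131) and *Pdgfc* in *KD1* (0.158) stand far to the left.

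*Met*, the HGF receptor gene, ranked first by TPM among the members in *WT* and *KD1*. Its counts were 7643, 10033 and 7708 in *WT*, 16919, 16384 and 15471 in *KD1*, and 11112, 13177 and 7231 in *KD2*. *Met* was higher in *KD1* by a log2 fold change of 0.70 ± 0.08 (adjusted p = 3.01e-06) and differed from *WT* by 0.09 ± 0.08 in *KD2* (adjusted p = 0.313). The ligand *Hgf* had 27, 42 and 40 counts in *WT*, 39, 36 and 49 in *KD1*, and 94, 114 and 56 in *KD2*. *Hgf* was called in *KD2* at 1.05 ± 0.20 (adjusted p = 3.27e-04), but the value fell short of the fold limit without *WT* replicate 1 (0.94), *KD2* replicate 1 (0.99) or *KD2* replicate 2 (0.98). The 6 tested genes within 2 Mb of *Hgf* had a median log2 fold change of 3.08 in *KD1*, where *Hgf* itself differed from *WT* by -0.06 ± 0.22 (adjusted p = 0.835).

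*Axl*, a receptor kinase bound by GAS6, was higher in both lines by less than the fold limit. It had 3503, 5119 and 3938 counts in *WT*, 8901, 8575 and 8029 in *KD1*, and 7988, 9419 and 6568 in *KD2*. The log2 fold changes were 0.78 ± 0.06 (adjusted p = 5.47e-08) and 0.73 ± 0.06 (adjusted p = 8.67e-08). *Gas6* was lower in both, with 289, 498 and 387 counts in *WT*, 282, 267 and 286 in *KD1* and 302, 360 and 313 in *KD2*. Its log2 fold changes were -0.73 ± 0.12 (adjusted p = 1.62e-04) and -0.45 ± 0.12 (adjusted p = 0.00458). Receptor and ligand thus had opposite signs in each line.

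*Kitl*, the stem cell factor gene, had 777, 1087 and 810 counts in *WT*, 621, 549 and 539 in *KD1*, and 1697, 2172 and 1088 in *KD2*. On the log2 scale it changed by -0.89 ± 0.10 in *KD1* (adjusted p = 3.63e-06) and 0.66 ± 0.09 in *KD2* (adjusted p = 2.74e-05), and the edited lines differed by 1.56 ± 0.10 (adjusted p = 5.92e-09). Its receptor gene *Kit*, which marks a subset of mammary luminal progenitors and mast cells, had 4, 6 and 6 counts in *WT*, 1 count in 1 *KD1* culture and none in *KD2*, and was too low for the filter. Tested without that filter, it was called lower in *KD1* (adjusted p = 9.99e-04) and *KD2* (adjusted p = 6.7e-05). Of 8 mast cell markers, *Hdc* alone exceeded 3 counts, in *KD1* and *KD2*.

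The collagen receptors split. *Ddr1*, the epithelial one, had 1229, 1813 and 1305 counts in *WT*, 1467 to 1589 in *KD1* and 1893 to 2266 in *KD2*, and was not called. *Ddr2*, best known from mesenchymal cells, had 59, 37 and 28 counts in *WT*, 13, 16 and 14 in *KD1*, and 491, 565 and 356 in *KD2*. All 3 lines were apart on the CPM scale, with 1.96 ± 0.925 CPM in *WT*, 0.558 ± 0.0748 in *KD1* and 18.7 ± 1.17 in *KD2*. The log2 fold change was -1.78 ± 0.31 in *KD1* (adjusted p = 2.51e-04) and 3.28 ± 0.19 in *KD2* (adjusted p = 4.3e-09). *Ddr2* thus made up 1.52% ± 0.778 of the DDR total by TPM in *WT*, 0.484% ± 0.0613 in *KD1* and 10.5% ± 1.86 in *KD2*. Among its possible collagen ligands, *Col1a1* had 108, 216 and 142 counts in *WT*, 14, 13 and 17 in *KD1*, and 106, 115 and 102 in *KD2*, or 7.03, 0.571 and 4.38 CPM. The fibroblast markers *Col1a2* and *Col3a1* had 17 to 40 and 59 to 80 counts in *WT*, 0 and at most 1 in *KD1*, and 64 to 98 and 55 to 79 in *KD2*.

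Other genes of these pathways were taken as lists. Of 19 tested ERK feedback and ETS target genes, *KD1* had 5 called higher and 1 lower, and *KD2* had 3 each way. These are 26.3% and 5.26% of the list in *KD1* and 15.8% each way in *KD2*, where 9.34% and 7.49% of all tested genes were called in *KD1* and 14.5% and 6.71% in *KD2*. The share lower in *KD1* and that higher in *KD2* were thus near or under the share over all genes. The medians of the log2 fold changes, were 0.35 and -0.34. *Il17rd* and *Spred3*, inhibitors of the pathway, were higher in both lines, *Il17rd* by 2.37 ± 0.21 (adjusted p = 3.6e-07) and 2.63 ± 0.21 (adjusted p = 8.44e-08), and *Spred3* by 2.38 ± 0.15 (adjusted p = 7.6e-09) and 1.90 ± 0.15 (adjusted p = 1.05e-07). *Spry1*, another inhibitor, was lower in both, by -1.82 ± 0.10 (adjusted p = 3.22e-09) and -1.13 ± 0.10 (adjusted p = 2.44e-07). *Etv1*, an ETS factor, was called in *KD2* at 2.36 ± 0.36 (adjusted p = 5.52e-05), with 3 to 7 counts in *WT* and 22 to 46 in *KD2*. *Etv1* passed the filter on low counts only through *KD2*, so this call is not independent of the filter. The list therefore held genes that moved both ways in each line.

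Of 16 tested co-receptors, carriers and decoys, *KD1* had 6 higher and 2 lower, and *KD2* had 5 higher and 1 lower. That is 37.5% and 12.5% in *KD1*, beside 9.34% and 7.49% of all tested genes, and 31.3% and 6.25% in *KD2*, beside 14.5% and 6.71%, so the share lower in *KD2* was near that of all genes. *Nrp1*, a co-receptor for VEGFs and PDGFs, had 305, 428 and 302 counts in *WT*, 53, 41 and 33 in *KD1*, and 1472, 1821 and 1128 in *KD2*, with log2 fold changes of -3.27 ± 0.12 (adjusted p = 3.28e-11) and 1.88 ± 0.08 (adjusted p = 3.22e-10). *Fgfbp1*, which carries FGFs away from the matrix, moved the other way, by 2.94 ± 0.16 (adjusted p = 2.45e-09) and -1.48 ± 0.18 (adjusted p = 6.17e-06). *Gpc3*, a glypican, was higher in both lines at low counts, 4 to 8 in *WT*, 17 to 21 in *KD1* and 38 to 68 in *KD2*. *Pgf*, a VEGF family ligand that binds VEGFR1, had 0, 10 and 2 counts in *WT*, 14, 15 and 16 in *KD1*, and 56, 72 and 42 in *KD2*.

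The heparan sulfate enzymes make and trim the chains that locally acting FGFs need. Of 15 tested genes, 6 were called lower and 1 higher in *KD1*, while in *KD2* there were 3 lower and 1 higher. The lower share was 40% in *KD1* and 20% in *KD2*, beside 7.49% and 6.71% of all tested genes, and the higher share was 6.67% in each, beside 9.34% and 14.5%. The medians of their log2 fold changes were -0.29 and -0.38. *Hs6st2*, a 6-O-sulfotransferase, had 31, 30 and 22 counts in *WT* and 1 count over the 3 cultures of each edited line. It passed the filter on low counts only through *WT*, so its calls are not independent of the filter. Its level in *WT* was 1.29 CPM. *Hs6st1*, of the same kind, stood at 324, 285 and 232 CPM in *WT*, *KD1* and *KD2* and was not called. *Hs3st1*, a 3-O-sulfotransferase, was lower by -3.96 ± 0.23 (adjusted p = 3.89e-09) and -3.16 ± 0.21 (adjusted p = 1.67e-08), and *Ndst3*, an N-sulfotransferase, by -2.53 ± 0.37 (adjusted p = 4.24e-05) and -2.10 ± 0.35 (adjusted p = 1.07e-04). *Ndst3* stood at 1.47 CPM in *WT*. *Ndst1*, of the same kind, stood at 140, 114 and 189 CPM in *WT*, *KD1* and *KD2* and was not called. *Ndst4*, also of that kind, was called higher in *KD2* (3.47 ± 0.29, adjusted p = 1.75e-07). It had 6 to 18 counts in *WT* and 96 to 205 in *KD2*. *Sulf2*, which removes 6-O-sulfate outside the cell, had 2735, 4087 and 3438 counts in *WT*, 142, 120 and 127 in *KD1*, and 6048, 7045 and 5414 in *KD2*. *Sulf2* was lower in *KD1* by -4.96 ± 0.10 (adjusted p = 6.28e-14) and stood 0.66 ± 0.07 above *WT* in *KD2* (adjusted p = 2.81e-06). *Sulf1*, the other enzyme of this kind, changed in the opposite sense, with 500, 590 and 447 counts in *WT*, 3327, 3188 and 3077 in *KD1*, and 436, 548 and 318 in *KD2*. For *Sulf1* edgeR gave a log2 fold change of 2.39 ± 0.07 in *KD1* (adjusted p = 3.74e-12) and -0.46 ± 0.08 in *KD2* (adjusted p = 1.37e-04).

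Of the 33 cytoplasmic relays, edgeR called 0 in *KD1* and 2 in *KD2*, both lower, which at 6.06% is near the 6.71% of all tested genes. They were *Plcg2* (-1.38 ± 0.08, adjusted p = 2.29e-09) and *Cblb* (-1.01 ± 0.06, adjusted p = 1.00e-08). DESeq2 also called 0 in *KD1*. In that line 20 of the 33 had an unadjusted p under 0.05 in edgeR, and 20 passed the adjusted p limit without the fold limit, 10 in each direction. Of all tested genes, 26.9% were higher and 30.0% lower in *KD1* at that adjusted limit, so the relays were near the share over all genes. Of 17 tested related receptor kinases, their ligands and genes of HGF processing, *KD1* had 6 higher and 1 lower, and *KD2* had 4 higher and 2 lower. These shares were 35.3% and 5.88% in *KD1*, beside 9.34% and 7.49% of all tested genes, and 23.5% and 11.8% in *KD2*, beside 14.5% and 6.71%. *Angpt1*, a TEK ligand, had 26, 32 and 34 counts in *WT*, 0, 2 and 1 in *KD1*, and 225, 313 and 124 in *KD2*. *Flt3*, a cytokine receptor of blood progenitors, had 157, 167 and 141 counts in *KD1* and at most 4 in any other culture. *Mst1r*, the RON receptor related to MET, had 76, 58 and 62 in *KD1* and at most 4 elsewhere. *Flt3* and *Mst1r* are among the 6 called higher in *KD1* and passed the filter on low counts only through that line. The share higher in *KD1* is thus not independent of the filter. *Plau*, the urokinase gene, whose product can activate pro-HGF, was higher in *KD1* by 2.65 ± 0.08 (adjusted p = 2.42e-12) and lower in *KD2* by -1.19 ± 0.08 (adjusted p = 1.74e-08).

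**Figure D4:**
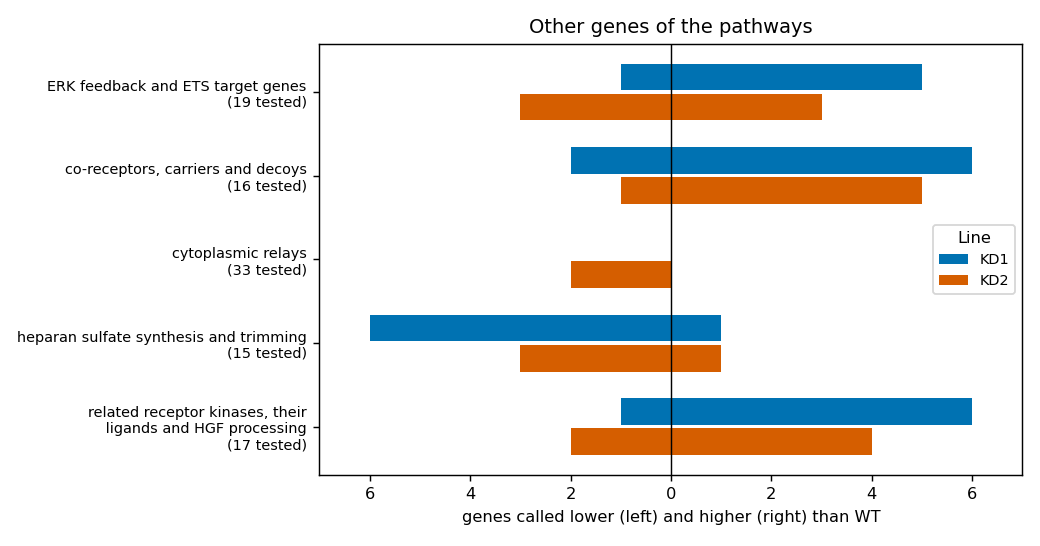
Number of genes called lower (left of 0) and higher (right of 0) than *WT* in *KD1* and *KD2* for 5 lists of other genes of these pathways, with the number tested beside each name. The heparan sulfate list reaches 6 lower in *KD1*, and of the cytoplasmic relays only 2 are called, both lower in *KD2*.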

How the data were processed

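RNA from 3 cultures each of *WT*, *KD1* and *KD2* HC11 cells was sequenced as poly-A-selected paired reads. The authors used fastp for trimming and HISAT2 for mapping to GRCm38, and deposited whole-number counts of reads over exons per gene from featureCounts, without normalization. How reads matching several genes were treated is not given in the sources used here. Each culture's line was taken from the labels, and 0 columns were left without a culture. Members and gene lists were chosen with earlier results of these data known, so no list is independent evidence.

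All 9 cultures were fitted together in edgeR 4.0.16 (R 4.3.3) with TMM scaling and its expression filter on the 3 lines, and tested by the quasi-likelihood F test with Benjamini-Hochberg adjustment over the tested genes. CPM use TMM-scaled library sizes. TPM use the union of exons from a GENCODE release for GRCm38 that differs from the one used by the authors. The floor of 3 counts is for counting error alone. Replicates of a line differed by more than sampling noise, and none were merged. Alternatives were DESeq2 1.42.0, other size factors, library size alone, other filters, the 6 cultures compared alone, the replicate number as a block, and each culture left out. The scripts were tested on simulated data. Members called in any comparison, or with an adjusted p under 0.05 against *WT* in both lines, are given in full, and other members by range or with fewer values. In each list up to 4 genes are named, those with the largest mean absolute change among genes called in either line. *Met*, *Fgfr1*, *Kit*, *Klb*, *Kdr*, *Flt4*, *Fgf18*, *Sulf1*, the other low FGF and FGF receptor genes and the single cell type markers were added after their values were seen. So were *Hs6st1*, *Ndst1* and *Ndst4*.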

Additional observations from a re-analysis of the deposited data

Results flagged for a closer look

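For 13 members the 2 edited lines differed from each other past both limits (quasi-likelihood test of edgeR, Benjamini-Hochberg adjustment), so that their difference from *WT* was not the same in both. Higher in *KD2* than in *KD1* were *Pdgfrb* (log2 fold change 8.82, adjusted p = 2.99e-14), *Pdgfc* (7.0, adjusted p = 1.56e-12), *Ddr2* (5.06, adjusted p = 1.57e-10), *Fgf13* (2.69, adjusted p = 6.86e-06), *Fgf11* (1.91, adjusted p = 7.72e-07) and *Kitl* (1.56, adjusted p = 5.92e-09). The same direction held for *Fgfr2* (1.26, adjusted p = 2.14e-06), *Fgf7* (1.25, adjusted p = 5.32e-05), *Fgf1* (1.22, adjusted p = 6.5e-06) and *Hgf* (1.11, adjusted p = 1.55e-04). Lower in *KD2* than in *KD1* were *Vegfd* (-3.51, adjusted p = 7.53e-11), *Fgf21* (-1.40, adjusted p = 0.00122) and *Fgfr3* (-1.07, adjusted p = 4.7e-05). For *Pdgfrb*, *Ddr2*, *Pdgfc*, *Kitl* and *Vegfd* the changes from *WT* had opposite signs with an adjusted p under 0.05 in each line. Each line is 1 clone, so the guide and the clone cannot be told apart. With 3 cultures a line, single values were not tested as outliers.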

How the results depend on the processing

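Under 7 other settings and with each culture left out, the number of members called lower in *KD1* (6) and in *KD2* (4) changed by over 1.5 times only with at least 10 counts in every culture, to 2 and 2. That filter removes *Pdgfc*, *Fgf21*, *Pdgfrb* and *Fgf13*. It also took the heparan sulfate list from 7 to 4 calls in *KD1* and from 4 to 0 in *KD2*, and the related kinases from 7 to 4 in *KD1*. With 1 culture left out, the cytoplasmic relays had 1 to 3 calls in *KD2*, and 1 without *WT* replicate 2, *WT* replicate 3 or *KD2* replicate 3. Small uncalled differences changed sign. *Axl* between the edited lines was 0.0814 with library size alone, and with 1 culture left out the log2 fold change in *KD1* ran from -0.157 to 0.0520 for *Fgf7*, -0.223 to 0.0796 for *Hgf*, -0.0211 to 0.174 for *Pdgfra* and -0.352 to 0.0275 for *Fgf11*. *Pdgfra* between the edited lines was called with library size alone (1.09) and without *KD1* replicate 1 (1.05), and *Fgfr3* was not with library size alone (-0.95). *Fgfr1* was called higher in *KD2* than in *KD1* with library size alone (1.08). Library size alone moved the median of all genes by 0.11 in *KD2* against *WT* and 0.13 between the edited lines.

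Adding replicate number as a blocking term, the same numbers of members were called, 3 higher and 6 lower in *KD1*, 9 and 4 in *KD2*, and 10 and 3 between the edited lines. Deviations of same-numbered cultures from their line means correlated at -0.0652 to 0.0789 over 9 pairs. Those of different-numbered cultures correlated at -0.101 to 0.107 over 18 pairs. Whether same-numbered cultures shared a batch is not given by the labels and cannot be settled by these values. The block changed no call of a named member, though *Gas6* between the edited lines passed the adjusted p limit, within the fold limit. Of the 20 members left untested by the filter, 2 were called when it was dropped, *Kit* lower in *KD1* (adjusted p = 9.99e-04) and *KD2* (adjusted p = 6.7e-05) and *Fgf18* higher in *KD1* (adjusted p = 0.00653). Both had at most 6 counts in any culture. The share called among all genes that the filter had left out was not computed, so these calls have no background beside them. At their depth the other 18 gave no call.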
